A study of Homo sapiens with 4 samples.

Results

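The MYC, MAX and MLX network is the set of basic helix-loop-helix leucine zipper proteins that pair with MAX or MLX. The 10 genes described are MYC, MAX, MXI1, MXD1, MXD3, MXD4, MNT, MGA, MLX and MLXIP, chosen by symbol from the 57979 genes of the deposited table. Each symbol had 1 row. All 10 had an average above 1 FPKM, and so were among the 13246 genes tested. FPKM are fragments scaled by transcript length and by library, and how the libraries were scaled is not given in the sources used here. The study asked what the loss of TXNDC9, a thioredoxin domain protein, does to hepatocellular carcinoma cells. It sequenced poly(A) RNA from wild-type HepG2 cells (2 libraries) and from HepG2 cells in which CRISPR-Cas9 had been directed at TXNDC9 (2 libraries, TXNDC9 knockout). The study's methods describe guides in the lentiCRISPRv2 vector against the first exon of TXNDC9. For its western blot of TXNDC9 the study describes HepG2 cells sorted for infection. Whether the sequenced cells were sorted in the same way is not given in the sources used here. HepG2 is an established line from a human liver tumour, and all cells were grown in DMEM with serum. The labels give neither the number of clones behind the knockout libraries nor whether the replicates were separate cultures, so the p-values measure only the spread between these libraries.

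MAX is the shared partner of the network. MYC binds DNA as a dimer with MAX at E-boxes (CACGTG) and activates genes of growth and ribosome production. The MXD proteins, MXI1 and MNT compete for MAX and recruit the SIN3-HDAC corepressors, while MGA joins MAX to a polycomb complex, PRC1.6. MLX is the partner of MLXIP (MondoA), a sensor of glucose phosphates, and it can also pair with MXD1, MXD4 and MNT. MYC RNA and protein are both short-lived.

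The labelled cell type was checked first. Of 9 hepatocyte markers, 9 stayed below 1 FPKM in every library, and APOA1 and FOXA2 were listed at 0 in all 4. The highest value of the list was 0.449 FPKM, for AFP in wild-type replicate 2. The list summed to between 0.351 and 0.716 FPKM in the wild-type and between 0.0479 and 0.121 in the knockout libraries. The defining markers of liver cells were thus at or near 0, and the samples are called the libraries labelled HepG2. Among 10 markers of other cell types, 6 were below 1 FPKM in every library, COL1A2 and LYVE1 among them at 0. CD68, of macrophages, stood at 3.38 and 5.16 FPKM in wild-type and at 5.77 and 6.90 FPKM in knockout libraries (log2 fold change 0.58, adjusted p = 0.0627, and 1.19 corrected as described below, adjusted p = 0.00518). COL1A1 stood at 31.4 and 22.8 against 20.7 and 17.5 FPKM, and ACTA2 at 4.15 and 4.77 against 3.46 and 3.79 FPKM. KRT7, a keratin of bile duct and other simple epithelia, stood at 2294 and 4071 FPKM in wild-type and at 526 and 559 FPKM in knockout libraries, and made up most of that list's sum of 2333 to 4104 and 556.6 to 588 FPKM. The part of the cells' identity in the results below was not tested.

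The FPKM values of all genes summed to 805816 and 971102 in the wild-type and to 535973 and 568279 in the knockout libraries. With every library set to an equal total (TPM), the tested genes had a median log2 fold change of 0.585, against -0.088 in FPKM. The changes also followed the transcripts. Over 13112 tested genes the log2 fold change rose with transcript length (Spearman's rho 0.495) and fell with GC content (rho -0.462). Values corrected for length and GC content are therefore given beside the main ones. In bulk RNA, fewer cells that express a gene and less of its RNA per cell cannot be told apart. TXNDC9 itself stood at 35.1 and 37.3 FPKM in wild-type and at 21.9 and 27.6 FPKM in knockout libraries (log2 fold change -0.55, adjusted p = 0.0145 by limma with Benjamini-Hochberg adjustment, with 0.124 without knockout replicate 1 and a log2 fold change of 0.12 in TPM). Its RNA was thus still present in the knockout libraries. Corrected for length and GC content, the log2 fold change of TXNDC9 was -0.52 (adjusted p = 0.0196).

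E-boxes at the start sites of the network's own genes were looked up in RefSeq (GRCh38.p14). Of the 10 genes, 9 matched (all but MYC), with 14 windows of 300 bases that run from 250 before to 50 after a start. CACGTG, which reads the same on both strands, was found in 3 of these windows, those of MXD4, MNT and MLX. Of all 35116 RefSeq windows, 2548 (7.26%) held it. The bases upstream of the start are shown for MXD3 and MXD4, which were both lower in the knockout, and for MGA, which was higher (the first of its 3 RefSeq windows, at the GENCODE start), and a shorter stretch around the E-box for MNT and MLX. CACGTG is in capitals, and each sequence runs 5′ to 3′ on the gene's own strand (hg38).
MXD3, chr5:177312758-177313002, minus strand: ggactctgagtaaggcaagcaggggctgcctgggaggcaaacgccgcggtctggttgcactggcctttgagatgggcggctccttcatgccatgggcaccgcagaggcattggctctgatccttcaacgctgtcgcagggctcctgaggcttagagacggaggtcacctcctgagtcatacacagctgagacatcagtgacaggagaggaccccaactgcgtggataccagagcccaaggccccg
MXD4, chr4:2262110-2262359, minus strand: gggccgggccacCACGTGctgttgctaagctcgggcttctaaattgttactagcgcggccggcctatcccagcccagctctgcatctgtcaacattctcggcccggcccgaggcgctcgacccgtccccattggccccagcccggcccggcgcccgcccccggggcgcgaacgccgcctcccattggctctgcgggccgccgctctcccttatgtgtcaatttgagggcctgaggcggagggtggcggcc
MGA, chr15:41620974-41621133, plus strand: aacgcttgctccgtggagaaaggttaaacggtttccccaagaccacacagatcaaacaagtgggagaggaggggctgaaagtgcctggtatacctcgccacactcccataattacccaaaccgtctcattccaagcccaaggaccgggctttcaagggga
MNT, chr17:2401218-2401283, minus strand: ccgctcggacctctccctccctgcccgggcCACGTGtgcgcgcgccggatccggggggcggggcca
MLX, chr17:42567020-42567071, plus strand: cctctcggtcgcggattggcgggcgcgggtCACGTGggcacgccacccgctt
Counted from the RefSeq start, the E-box of MXD4 is at -238, that of MNT at -193 and that of MLX at -50. No E-box of these letters was in the windows of MXD3 or MGA. Of the 3 genes with the motif, MXD4 was lower in the knockout libraries, and MNT and MLX did not pass the test.

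A gene was called when the adjusted p was under 0.01 and the change at least 2-fold, which are the study's limits. By this rule 1 of the 10 members was lower in the knockout, MXD3, where 15.3% of all tested genes were, and 1 was higher, MGA, where 14.2% of all tested genes were. At an adjusted p under 0.05 with no limit on the fold, 4 were lower (MYC, MAX, MXD3 and MXD4, background 36.7%) and 2 were higher (MXD1 and MGA, background 31.6%). The words rose and fell below refer to this second rule. In 5 members both knockout values lay below both wild-type values (background 45.9%), and in 3 both lay above (background 40.1%). In TPM the signs of MYC and MAX turned. Without knockout replicate 1 or 2 limma called 0 of the 13246 genes at the study's limits (7129 and 7307 at an unadjusted p under 0.05). The adjusted p of MGA was then 0.0237 or 0.0232 and that of MXD3 0.0237 or 0.0241. These shares over 10 genes were not set apart from the background by any test. The median log2 fold change of the members was -0.053, against -0.088 over all tested genes.

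**Figure D1:**
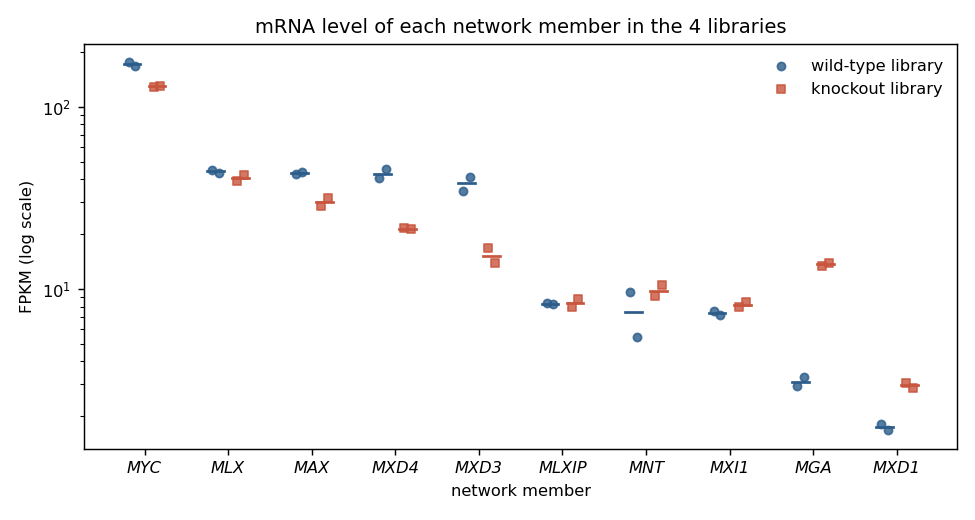
FPKM of the 10 network genes on a log axis, with a point for each of the 2 wild-type and 2 TXNDC9 knockout libraries. MYC lies above all the others in each library, and MGA shows the widest gap between the groups, from 2.91 and 3.28 to 13.4 and 13.9 FPKM.

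MYC was the most abundant RNA of the network in all 4 libraries. It stood at 175.4 and 167.9 FPKM in wild-type cells and at 129 and 130.1 FPKM in TXNDC9 knockout cells, so both knockout values were lower than both wild-type values. The means were 172 ± 5.34 (SD, n = 2) and 130 ± 0.781 FPKM (SD, n = 2). MYC fell by 0.41 on the log2 scale (95% interval -0.67 to -0.14, adjusted p = 0.0182), which did not reach 2-fold. Corrected for length and GC content, the fall was larger (log2 fold change -0.63, adjusted p = 0.00329). After rescaling to TPM the sign turned (0.28, adjusted p = 0.0869), against a median of 0.585 over all tested genes. Without either knockout library the adjusted p was 0.169 or 0.157. The gene (ENSG00000136997) has 3 exons at chr8:127735434-127742951 on the plus strand of hg38. CASC11, an antisense lncRNA, overlaps it and was at or under 0.994 FPKM in every library.

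The other MYC paralogs were close to silent. MYCN, the paralog of neuroblastoma, was listed at 0 in 3 libraries and at 0.021 FPKM in wild-type replicate 2. MYCL, first found in small cell lung cancer, stood at 0.536 and 0.611 FPKM in wild-type and at 0.954 and 1.02 FPKM in knockout libraries. Their averages were below 1 FPKM, and neither was tested.

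MAX, the obligate partner of MYC and of its antagonists, was also lower. It stood at 42.6 and 44 FPKM in wild-type and at 28.5 and 31.6 FPKM in knockout libraries, with no overlap. The fall was 0.53 on the log2 scale (95% interval -0.79 to -0.27, adjusted p = 0.00628). It was -0.30 after correction for length and GC content (adjusted p = 0.0438) and turned to 0.15 in TPM (adjusted p = 0.302). Without knockout replicate 1 the adjusted p was 0.0873. The ratio of MYC to MAX was 4.12 and 3.81 in the wild-type libraries and 4.53 and 4.12 in the knockout libraries. These ranges overlap. A ratio of 2 genes in one library does not depend on the library's scale. MAX (ENSG00000125952, chr14:65006174-65102695, minus strand) is crossed on the other strand by FNTB, which encodes a farnesyltransferase subunit and stood at 10.9 and 10.2 against 8.93 and 10.5 FPKM.

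MGA, the largest protein of the network and the scaffold of PRC1.6, had the largest change of the 10 members. It stood at 2.91 and 3.28 FPKM in wild-type and at 13.4 and 13.9 FPKM in knockout libraries. Every knockout value was thus above every wild-type value, and the means were 3.09 ± 0.258 and 13.7 ± 0.415 FPKM (SD, n = 2 each). MGA rose by 2.11 on the log2 scale (95% interval 1.81 to 2.41, adjusted p = 0.000487), at the 97.2 percentile of all tested genes. Its canonical transcript is 12193 nt long, the longest of the network. Corrected for length and GC content, the rise was 1.08 (95% interval 0.74 to 1.41, adjusted p = 0.00211), smaller than the uncorrected value and still past both limits. MGA (ENSG00000174197, 24 exons, chr15:41621134-41773081, plus strand) overlaps 2 antisense lncRNAs, a processed pseudogene and MIR626.

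MXD3 and MXD4, the most abundant antagonists in wild-type cells, were both lower. MXD3, an antagonist known from the S phase of proliferating cells, stood at 34.6 and 41.4 FPKM in wild-type and at 16.7 and 13.8 FPKM in knockout libraries. It fell by 1.31 on the log2 scale (95% interval -1.67 to -0.95, adjusted p = 0.000915), a 2.49-fold lower mean. MXD3 has the shortest transcript of the network, 1067 nt, with the highest GC content, 65.6%. After correction for these its log2 fold change was -0.33 (adjusted p = 0.0583), which no longer passed either limit, and in TPM it was -0.64 (adjusted p = 0.00785). MXD3 (ENSG00000213347, chr5:177301461-177312757, minus strand) shares its locus with RAB24 on the same strand, at 48.2 and 61.7 against 18.6 and 18.3 FPKM, and with PRELID1 on the other strand, at 484 and 625 against 245 and 261 FPKM. Both neighbours were also lower in both knockout libraries, and how shared reads were split is not given in the sources used here.

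MXD4, found in many tissues at rest and during differentiation, stood at 40.6 and 45.3 FPKM in wild-type and at 21.5 and 21.3 FPKM in knockout libraries. It fell by just under 1 on the log2 scale (-0.9998, 95% interval -1.26 to -0.74, adjusted p = 0.000809). This lies just outside the 2-fold limit, and MXD4 was past it with a pseudocount of 0.01, after centring on the median and without wild-type replicate 1. With no pseudocount added, its mean FPKM was 2.007-fold lower in the knockout libraries. The corrected log2 fold change was -0.55 (adjusted p = 0.00766) and that in TPM -0.32 (adjusted p = 0.0432). MXD4 (ENSG00000123933) lies at chr4:2247432-2262109 on the minus strand.

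MXD1, the antagonist that rises in differentiating myeloid and epithelial cells, was the least abundant member in both groups. It stood at 1.81 and 1.67 FPKM in wild-type and at 3.04 and 2.87 FPKM in knockout libraries. The groups did not overlap, and the rise was 0.73 on the log2 scale (95% interval 0.28 to 1.18, adjusted p = 0.0146). Nothing of it was left after correction for length and GC content (log2 fold change 0.016, 95% interval -0.43 to 0.46, adjusted p = 0.947). In TPM it was 1.40 and past both limits (adjusted p = 0.00251). Without either knockout library the adjusted p was 0.0998 or 0.0764. MXD1 (ENSG00000059728, chr2:69897688-69942945, plus strand) overlaps SNRNP27 on the same strand, which stood at 43.5 and 45.4 against 27.8 and 28.3 FPKM, lower where MXD1 was higher.

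MXI1 and MNT did not pass the test. MXI1, also called MXD2, stood at 7.59 and 7.20 FPKM in wild-type and at 7.95 and 8.43 FPKM in knockout libraries. Its log2 fold change of 0.15 had a 95% interval of -0.13 to 0.42 (adjusted p = 0.283), and it was -0.18 after correction (adjusted p = 0.197) and 0.82 in TPM (adjusted p = 0.00475). MNT, the antagonist present in nearly all cells, stood at 9.56 and 5.43 FPKM in wild-type and at 9.14 and 10.4 FPKM in knockout libraries. The wild-type libraries of MNT differed more from each other than the knockout libraries did, and the groups overlapped. Its log2 fold change was 0.43 (95% interval -0.23 to 1.09, adjusted p = 0.195). Without wild-type replicate 1 it was 0.84 (adjusted p = 0.00314), and without wild-type replicate 2 it was 0.031. Corrected for length and GC content it was 0.64 (95% interval 0.049 to 1.22, adjusted p = 0.067), and in TPM 1.11 (adjusted p = 0.0199). MXI1 (ENSG00000119950) lies at chr10:110207605-110287365 on the plus strand and MNT (ENSG00000070444) at chr17:2384073-2401104 on the minus strand.

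**Figure D2:**
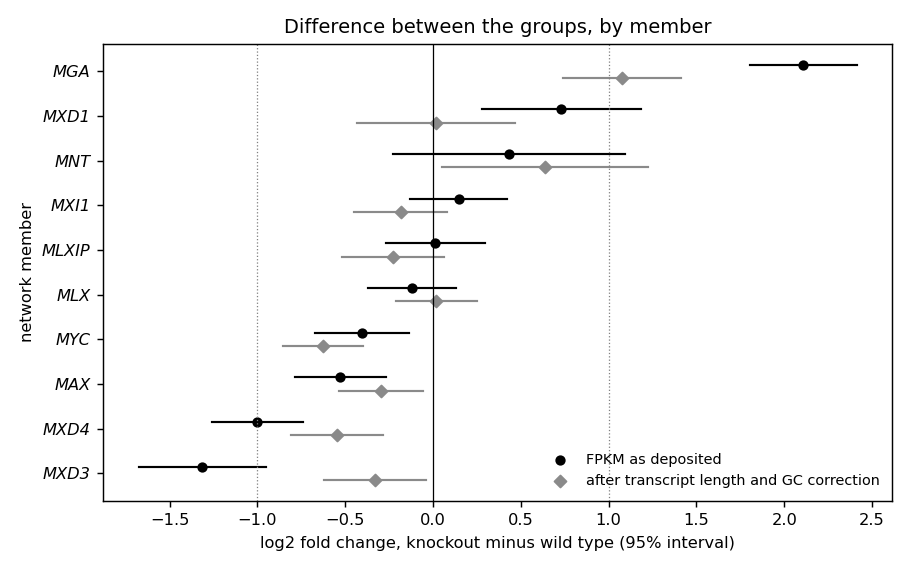
Log2 fold change (knockout minus wild type) of the 10 members with 95% intervals, as measured and after correcting for length and GC content. MGA stays the highest under both, at 2.11 and 1.08, while MXD3 moves from -1.31 to -0.33 and MXD1 from 0.73 to 0.016.

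The 6 antagonists were next summed in each library, since they share MAX. Their FPKM summed to 97.1 and 104.3 in wild-type and to 71.7 and 70.8 in knockout libraries, with no overlap. In TPM the sum went the other way, at 120.5 and 107.4 against 133.8 and 124.5. The ratio of MYC to this sum was 1.81 and 1.61 in wild-type and 1.799 and 1.84 in knockout libraries, and these ranges overlap. The ratio of the sum to MAX overlapped too, at 2.28 and 2.37 against 2.52 and 2.24. What differed was the makeup of the sum. MXD3 and MXD4 made up 77.5% and 83.1% of it in wild-type and 53.3% and 49.5% in knockout libraries. MGA went from 3% and 3.14% to 18.7% and 19.7%, and MXD1 from 1.87% and 1.602% to 4.24% and 4.05%. MGA per MAX was 0.0684 and 0.0744 in wild-type and 0.469 and 0.441 in knockout libraries. No exact permutation test of 2 against 2 libraries can give a two-sided p below 0.333, and these ratios were not tested. They are independent of library scale but not of transcript length.

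**Figure D3:**
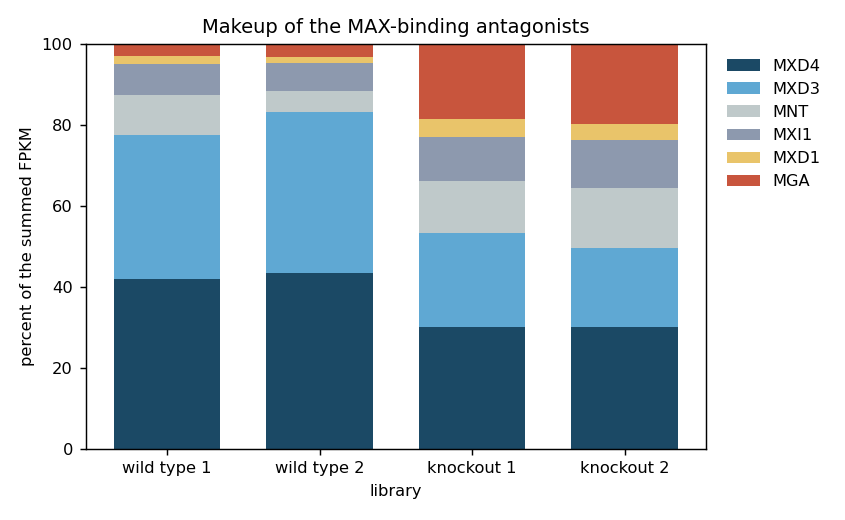
Percent of the summed FPKM of MXD1, MXI1, MXD3, MXD4, MNT and MGA held by each, stacked for each of the 4 libraries. MGA takes 3% and 3.14% in the wild-type and 18.7% and 19.7% in the knockout libraries, where MXD3 and MXD4 take less.

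The MLX branch differed less. MLX stood at 45.2 and 43.2 FPKM in wild-type and at 39.2 and 42.2 FPKM in knockout libraries. These groups did not overlap, but the log2 fold change of -0.12 did not pass the test (95% interval -0.37 to 0.13, adjusted p = 0.333). MLXIP stood at 8.39 and 8.22 FPKM in wild-type and at 7.95 and 8.84 FPKM in knockout libraries, which overlap. Its log2 fold change was 0.013 with a 95% interval of -0.27 to 0.29 (adjusted p = 0.923). Corrected for length and GC content, MLX had a log2 fold change of 0.019 and MLXIP of -0.23, and neither passed the test. In TPM both passed at an adjusted p under 0.05, at 0.56 and 0.69, near the median of 0.585 over all tested genes, and after centring on the median MLX passed at -0.26 (adjusted p = 0.0463). MLX (ENSG00000108788, chr17:42567072-42573239, plus strand) overlaps PSMC3IP on the other strand, at 51.2 and 54.8 against 32.3 and 35.4 FPKM. MLXIP (ENSG00000175727, chr12:122078756-122147344, plus strand) overlaps no other annotated gene. MLXIPL (ChREBP), the paralog of MLXIP that liver cells use, was at 0.573 and 0.461 FPKM in wild-type and at 0.213 and 0.309 FPKM in knockout libraries and was not tested.

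In wild-type libraries the order of the levels was MYC, then MLX, MAX, MXD4 and MXD3, then MLXIP, MNT and MXI1, then MGA and MXD1. Neighbours within MLX to MXD3 and within MLXIP to MXI1 overlapped in their ranges, and the steps between these groups did not. In knockout libraries the order was MYC, MLX, MAX, MXD4, MXD3, MGA, MNT, MLXIP, MXI1 and MXD1. Only MXD3 and MGA, and MLXIP and MXI1, overlapped there. MGA moved from rank 9 to rank 6, level with MXD3.

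The members' changes followed the length of their transcripts. Over the 10 genes the log2 fold change had a Spearman's rho of 0.745 with canonical transcript length and of -0.697 with GC content, given as a description of genes measured in the same libraries. After the correction the rho with length was 0.455. The corrected values gave 3 members lower at an adjusted p under 0.05 (MYC, MAX and MXD4) and 1 higher (MGA). The share of all genes at that adjusted p was not counted after the correction. At the study's limits no member was then called lower and 1 was called higher (MGA), against 1035 and 853 of 13112 genes.

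**Figure D4:**
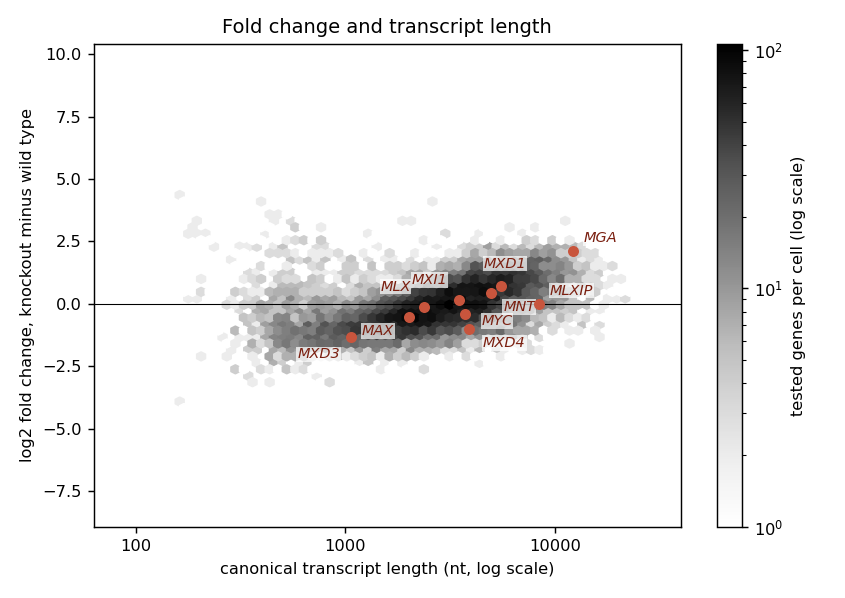
Log2 fold change (knockout minus wild type) against canonical transcript length (nt, log axis) for the tested genes, with shading for genes per cell and the 10 members as labelled points. Members with long transcripts tend to sit higher, along the trend of all genes. The shortest is MXD3 at 1067 nt and -1.31 and the longest MGA at 12193 nt and 2.11. The order is not strict, with MLXIP at 8390 nt and 0.013 and MXD4 at 3871 nt and -0.9998.

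Other factors of the E-box and MYC's cofactors were read from the same fit. Of 11 other E-box factors and MYC partners, 10 were tested, and 6 fell and 2 rose. Over all tested genes 36.7% fell and 31.6% rose. TFEB, a regulator of lysosomal genes, was called lower at 3.72 and 4.19 against 1.45 and 1.40 FPKM. Its relative MITF, the master factor of melanocytes, was called higher at 14.4 and 13.2 against 31.6 and 35.3 FPKM. MAZ, a zinc finger protein named for binding the MYC promoter, stood at 187.9 and 156.9 against 117.9 and 100.5 FPKM and fell by 0.66 on the log2 scale (adjusted p = 0.0096). After correction MAZ had a log2 fold change of 0.16 (adjusted p = 0.363), and in TPM of 0.023 (adjusted p = 0.918). The median of this list was -0.71, and 0.10 after correction, when limma called 0 of the list (4 lower and 2 higher at an unadjusted p under 0.05). Over the table the correction gave 1035 called lower and 853 higher of 13112 genes. The share of all genes at an unadjusted p under 0.05 was not counted after the correction.

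Of 19 MYC coactivators, 4 were called lower and 5 higher (15.3% and 14.2% of all tested genes). In TPM 0 were called lower and 8 higher, against 447 and 4380 of all 13246 tested genes. The histone acetyltransferases EP300 (2.87 and 2.12 against 10.9 and 12.4 FPKM, log2 fold change 2.19, adjusted p = 0.00055), KAT2B (1.65) and CREBBP (1.55) rose, as did CCNT1 (1.42), the cyclin of P-TEFb, and TRRAP (1.14), the scaffold that brings acetyltransferases to MYC. The acetyltransferase KAT2A (-1.36), the ATPase RUVBL2 (-1.22), PAF1 (-1.16) and the SWI/SNF subunit SMARCB1 (-1.03) fell. Of these genes only EP300 and KAT2B were named by rule, and the others were named after their values were seen. After correction limma called 3 of the list higher and 0 lower, against 853 and 1035 of 13112 genes. At an unadjusted p under 0.05 by limma 6 of the list were then higher and 9 lower, and the share of all genes was not counted. EP300 was at 1.54 and KAT2B at 1.06 after correction.

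Of 18 genes of the SIN3-HDAC and NCOR complexes, the corepressors of the antagonists, 4 were called lower and 2 higher, with a median of 0.087. Over all tested genes 15.3% and 14.2% were called, with a median of -0.088. The balance depended on the scaling. After correction 4 were called lower and 0 higher (7 and 5 at an unadjusted p under 0.05, median -0.074), against 1035 and 853 of 13112 genes. In TPM 1 was called lower and 7 higher, against 447 and 4380 of 13246 genes. BRMS1, a SIN3 subunit known as a metastasis suppressor, stood at 83.7 and 111 against 26.2 and 28.4 FPKM (log2 fold change -1.82, and -0.95 corrected). ARID4B, another SIN3 subunit, stood at 4.16 and 2.95 against 10.5 and 10.8 FPKM (log2 fold change 1.58, and 0.72 corrected). Neither BRMS1 nor ARID4B was called after correction. The 4 then lower were ING1, ING2, SAP18 and HDAC2, and the 4 lower as measured were BRMS1, ING2, SAP18 and HDAC3. Of the 12 PRC1.6 partners of MGA, 1 was called lower and 0 higher by limma, although 4 rose and 5 fell at an adjusted p under 0.05, and as many at an unadjusted p under 0.05. Over all tested genes 15.3% and 14.2% were called lower and higher, and 31.6% rose and 36.7% fell. The called gene was EHMT2 (G9a), a histone H3 lysine methyltransferase, at 65 and 83.4 against 23.5 and 24.4 FPKM (log2 fold change -1.62, adjusted p = 0.000601, and -1.32 corrected). The list had a median of 0.15, and of -0.48 after correction. In TPM 3 of the list were called higher and 0 lower, against 4380 and 447 of 13246 genes.

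Genes known as targets were counted last. Of 28 tested genes of 30 activated by MYC, 20 fell and 4 rose at an adjusted p under 0.05, and 6 were called lower and 1 higher. Of all tested genes, 36.7% fell and 31.6% rose, and 15.3% and 14.2% were called. After correction 3 of the list were called lower and 1 higher, against 1035 and 853 of 13112 genes. In TPM 1 was called lower and 4 higher, against 447 and 4380 of 13246 genes. The list's median log2 fold change was -0.69, against -0.088 over all tested genes. The median was -0.475 after correction, against -0.073, and -0.01 in TPM, against 0.585. SRM, the spermidine synthase, stood at 377.8 and 519.3 against 93.1 and 101.1 FPKM (log2 fold change -2.19, adjusted p = 0.00055, and -1.20 corrected). TFRC, the transferrin receptor, went the other way, at 94.3 and 73.9 against 385.7 and 387 FPKM (log2 fold change 2.21, adjusted p = 0.000512, and 1.51 corrected). The list was written with results of these data known, so its direction is not independent evidence.

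EIF3B, EIF4A1 and CDK4 are the genes at which the study looked for MYC by ChIP-qPCR. EIF3B, a subunit of translation initiation factor eIF3, stood at 236.3 and 272.2 against 130.5 and 147.2 FPKM (log2 fold change -0.87, adjusted p = 0.00256). CDK4, the G1 cyclin-dependent kinase, stood at 130.2 and 157.4 against 84.4 and 88.2 FPKM (-0.73, adjusted p = 0.00435). EIF4A1, an RNA helicase of initiation, stood at 1071 and 1180 against 724.5 and 813.5 FPKM (-0.55, adjusted p = 0.0266). All 3 fell with no overlap between the groups and none reached 2-fold. Over all tested genes 36.7% fell, and in 45.9% both knockout values lay below both wild-type values. In TPM none of the 3 passed (-0.19, -0.05 and 0.13 for EIF3B, CDK4 and EIF4A1). After correction EIF4A1 no longer passed (-0.23, adjusted p = 0.17), while EIF3B (-0.62, adjusted p = 0.00939) and CDK4 (-0.35, adjusted p = 0.0417) did at an adjusted p under 0.05.

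Of 16 target genes of MLXIP and MLXIPL, 10 were tested, of which 6 rose and 1 fell, also at an unadjusted p under 0.05, and 2 were called higher and 0 lower by limma. Over all tested genes 31.6% rose and 36.7% fell, and 14.2% and 15.3% were called higher and lower. The list's median was 0.386, and 0.052 after correction, against -0.088 and -0.073 over all tested genes. In TPM 6 were called higher and 0 lower, against 4380 and 447 of 13246 genes. TXNIP, the thioredoxin-interacting protein and the best known MondoA target, stood at 21.8 and 26.5 against 27.3 and 25.5 FPKM (log2 fold change 0.13, 95% interval -0.19 to 0.46, adjusted p = 0.387), with overlapping groups. In TPM its log2 fold change was 0.81 (adjusted p = 0.00114). ARRDC4, its arrestin relative, was at or under 0.387 FPKM in every library and was not tested. ACLY, which makes cytosolic acetyl-CoA, stood at 59.7 and 46.8 against 158.9 and 166.8 FPKM (log2 fold change 1.62, adjusted p = 0.000611, and 1.46 corrected). PNPLA3, a lipid droplet protein, stood at 1.31 and 1.36 against 3.91 and 2.52 FPKM (1.17, adjusted p = 0.00983, and 1.35 corrected).

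**Figure D5:**
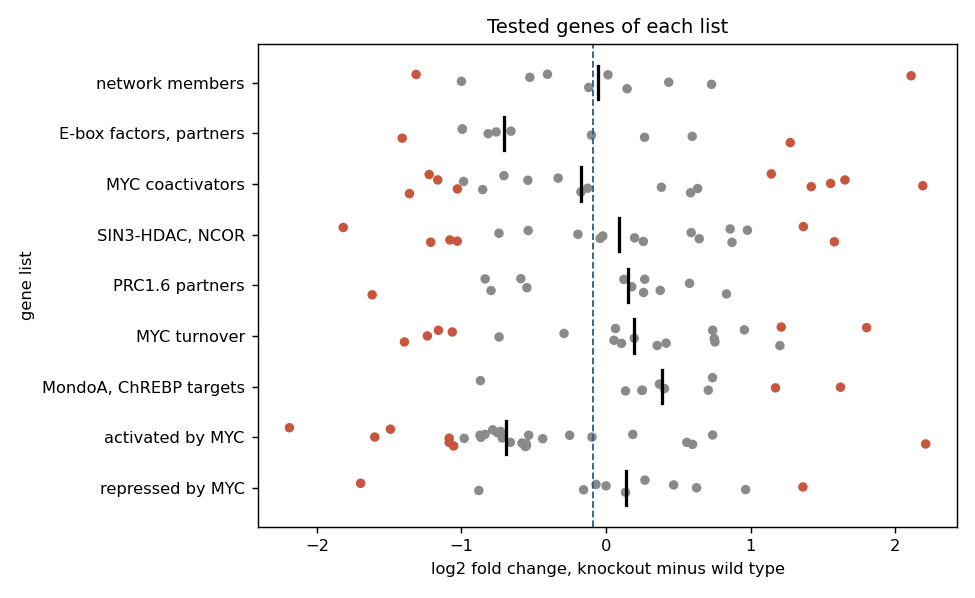
Log2 fold change (knockout minus wild type) of each tested gene of the network and of the lists read beside it, one point a gene, with the median of each list. The genes activated by MYC have a median of -0.69 and the targets of MLXIP and MLXIPL one of 0.386 (0.052 corrected), where all tested genes have one of -0.088.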

How the data were processed

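Poly(A) RNA from 4 libraries labelled HepG2, 2 wild type and 2 TXNDC9 knockout, was sequenced on an Illumina Hiseq Xten. Reads were mapped to hg38 by the authors (TopHat2), who deposited an FPKM from Cuffdiff for each gene in each library. Neither the tools' versions nor library scaling or strand use in counting is given in the sources used here. Values stood on 57979 of the 231916 lines of the deposited table, and its identifiers, each of which occurred 4 times, were put back in order. After this the symbols of 10 of 10 members matched GENCODE release 44. The authors' averages, fold changes, p-values and q-values were not used. FPKM values give no counts, so the depth is unknown and no counting intervals are given.

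limma 3.58.1 (R 4.3.3, trended eBayes) was fitted to log2(FPKM + 0.1) of the 13246 genes that averaged over 1 FPKM, without a replicate block, and p-values were adjusted over these by Benjamini-Hochberg. Fold changes on this scale understate those of low genes. Intervals are limma's 95% intervals, not adjusted. The correction fitted a loess curve (span 0.3) on canonical transcript length and GC content to each library. Leaving out a library left 1 in its group, which is then assumed to vary like the other group. Same-numbered libraries were checked for shared deviations (correlation -0.0904), and the labels name no shared culture.

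The genes named by rule are the 10 members, TXNDC9, MYCN, MYCL, MLXIPL, MAZ, TXNIP, ARRDC4, EIF3B, EIF4A1, CDK4, and the 2 largest changes among the called genes of each list. Any other gene was named after its values were seen. The members and lists were chosen with earlier results of these data known. One marker gene of the planned list is not reported here. Promoter sequences are from RefSeq (GRCh38.p14), and only bases upstream of both the RefSeq and the GENCODE start are printed. Python 3.11.15, pandas 2.3.3, numpy 2.4.6 and matplotlib 3.10.9 were used.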

Additional observations from a re-analysis of the deposited data

How the results depend on the processing

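As reported, 2021 genes were called lower and 1885 higher, 1 member in each direction, and 21 lower and 14 higher in the other lists, with 4 members lower and 2 higher at an adjusted p under 0.05. Rescaling to TPM gave 447 lower and 4380 higher over the table (90.7% of calls higher, against 48.3%). It gave 0 members lower and 2 higher, and 3 and 43 in the lists. At an adjusted p under 0.05 it gave 2 members lower and 6 higher. The share of all genes at that limit was not counted in TPM, where the tested genes centred on 0.585. Of the 6, MLX (0.56) and MLXIP (0.69) lay near that value. MXI1 (0.82), MNT (1.11), MXD1 (1.40) and MGA (2.79) lay further above it. Whether 6 of 10 exceeds the share of all genes was not tested. Centring on the median left 35.8% of calls higher and 2 members called lower. A pseudocount of 0.01 also gave 2 members called lower, with 2043 genes lower and 1901 higher over the table. An average FPKM above 5 gave 1220 genes higher, and 1 member higher at an adjusted p under 0.05, as MXD1 was not tested. The length and GC correction gave 1035 lower and 853 higher, 0 members lower, 8 lower and 8 higher in the lists, and 1 member higher at an adjusted p under 0.05. With the replicate block added these were 1033, 812, 0, 8, 7 and 1.

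The signs that turned were those of MYC (0.28), MAX (0.15), MLX (0.56) and TXNDC9 (0.12) in TPM, of MXI1 (-0.18), MLX (0.019) and MLXIP (-0.23) under the correction with and without the replicate block, and of MLXIP after centring (-0.13), without wild-type replicate 2 (-0.0015) and without knockout replicate 2 (-0.062). The replicate block alone gave 2146 lower and 1960 higher and changed no call of a member.

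Leaving out each library gave 0 to 2633 genes lower, 0 to 2136 higher, 0 to 2 members called lower, 0 to 1 higher, 0 to 25 and 0 to 16 in the lists, and 2 to 4 members lower and 1 to 3 higher at an adjusted p under 0.05. The 0 counts came without knockout replicate 1 or 2, where limma's smallest adjusted p was 0.016 or 0.0232, with 7129 and 7307 genes at an unadjusted p under 0.05. The log2 fold change of TXNDC9 ran from -0.72 to -0.39, and that of MLXIP from -0.062 to 0.089. Of 139 alternatives for the members, 113 kept direction and side of an adjusted p of 0.05, 12 turned, 5 newly passed and 9 no longer passed. Calls at the study's limits are not what this counts, and some changed within the 113. In TPM, for example, MXD3 was no longer called (log2 fold change -0.64) and MXD1 was newly called (1.40). The cause was not tested. The unknown depth and 2 libraries a group limit the precision.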

Other observations

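Genes that act on the MYC protein were also read from the same limma fit. Of 20 such genes, 19 were tested, with 9 that rose and 5 that fell at an adjusted p under 0.05 (31.6% and 36.7% of all tested genes), and 2 called higher and 4 called lower (14.2% and 15.3%). In TPM 9 were called higher and 0 lower, against 4380 and 447 of 13246 genes. USP37, a deubiquitinase of MYC, stood at 1.41 and 1.26 FPKM in wild-type and at 4.71 and 5.08 FPKM in knockout libraries (log2 fold change 1.8014, adjusted p = 0.000686, and 0.78 corrected for length and GC content). STUB1, the ubiquitin ligase CHIP, stood at 108.9 and 132.2 against 45.3 and 45.9 FPKM (log2 fold change -1.39, adjusted p = 0.000633, and -0.39 corrected). The median of the list was 0.195, and -0.12 after correction. By limma 1 gene was then called higher and 0 lower (6 and 8 at an unadjusted p under 0.05). The share of all genes at that unadjusted p was not counted. Over the table the correction gave 853 called higher and 1035 lower of 13112 genes.

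Of 11 genes known to be repressed by MYC, 4 rose and 2 fell at an adjusted p under 0.05, and 1 was called in each direction. Over all tested genes 31.6% rose and 36.7% fell, and 14.2% and 15.3% were called higher and lower. In TPM 4 were called higher and 1 lower, against 4380 and 447 of 13246 genes. CDKN1C, the CDK inhibitor p57, stood at 14.4 and 16.3 against 4.83 and 4.48 FPKM (log2 fold change -1.70, adjusted p = 0.000512, and -0.82 corrected). THBS1, the angiogenesis inhibitor thrombospondin, stood at 3.49 and 3.47 against 9.005 and 9.18 FPKM (1.36, adjusted p = 0.000572, and 0.56 corrected). Neither was called after correction, when the one called gene was CDKN1A, the CDK inhibitor p21, named after its values were seen (1.16 corrected, and 0.63 as measured). The list had a median of 0.135, and of 0.473 after correction, against -0.073 over all tested genes. Over the table the correction gave 853 called higher and 1035 lower of 13112 genes. MLXIP per MLX was 0.186 and 0.190 in wild-type and 0.203 and 0.210 in knockout libraries, with no overlap.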
